A study of Mus musculus with 4 samples.

Results

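Open chromatin at the HoxD gene cluster was examined in adipose progenitors, stromal cells from which new adipocytes form. The cluster holds the 9 genes Hoxd13, Hoxd12, Hoxd11, Hoxd10, Hoxd9, Hoxd8, Hoxd4, Hoxd3 and Hoxd1 on mouse chromosome 2. The stretch was chosen by position: every peak with a base between 74.4 and 75.1 Mb of build mm9 belongs to it, a window of 700 kb. It was picked from the genome with the peaks of these same lists in view, so its peak numbers and scores describe the locus and are given without p-values. Of the 198854 peaks in the 4 lists of the series, 71 lay in the window, and they merged into 33 of 83319 merged regions. The placement rule puts Hoxd13 near 74.508 Mb and Hoxd1 near 74.605 Mb, and these landmarks were widened outwards to the next multiple of 10 kb, so that the cluster was read as 74.50 to 74.61 Mb (110 kb, 13 regions). The 490 kb beyond Hoxd1 held 19 regions, and the 100 kb beyond Hoxd13 held 1.

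The study compared visceral (VAT) with subcutaneous (SAT) progenitors, freshly isolated from the fat of untreated C57BL/6 mice aged 16 weeks. There were 2 libraries of each depot, named VAT 1, VAT 2, SAT 1 and SAT 2 after their sample titles. Accessible DNA was read by ATAC-seq, where a transposase places sequencing adapters where chromatin is open, and each library has its own peak list with a caller's score per peak. Whether 2 libraries of 1 depot stand for separate mice, and how progenitors were purified, is not stated in the labels, so that their spread may be technical only. Marker genes of progenitors, blood, vessel or mature fat cells were not examined, since no gene annotation of build mm9 was used here.

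The lists differed in ways that reach every value below. SAT 2 held 22845 peaks, and the other libraries held between 56823 and 62279. Read counts were not given with the lists, so depth is unknown and the lack of a peak cannot be read as closed chromatin. Each peak is therefore given by its score percentile, its rank within its own list, where 100 is the highest score and the list median is 50 by construction. Over whole lists, VAT 1 and SAT 1 shared more of their joint covered bases (Jaccard index 0.605) than VAT 1 and VAT 2 did (0.506). For SAT 2 the index was highest against SAT 1 of its own depot (0.328), narrowly above VAT 1 (0.322), and lowest against VAT 2 (0.301). In bases alone this order was reversed. Of the SAT 2 bases, VAT 2 held 5550689, VAT 1 held 5330996 and SAT 1 held 5320562. A partner list that covers more bases lowers the index. VAT 2 covered 18.2 Mb, VAT 1 covered 16.1 Mb and SAT 1 covered 15.7 Mb. The order of the index thus does not show that SAT 2 was closest to its own depot.

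Hox genes encode homeodomain transcription factors that give cells their position along the body axis, and they lie along each cluster in the order of the body regions they pattern. Genes at the Hoxd13 end act in the most posterior and distal structures, and genes at the Hoxd1 end act furthest forward. In mouse limbs, HoxD genes are also controlled by enhancers in the large stretches on either side of the cluster: those beyond Hoxd13 act in digits, and those beyond Hoxd1 act in the upper limb and forearm. Adult fat progenitors keep a Hox code that differs between body sites.

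All 9 genes were matched by symbol in RefSeq tables of build GRCm38.p6, which were used for gene order and sequence only. Sorted by the lowest start of each entry, the order there was Hoxd13, Hoxd12, Hoxd11, Hoxd10, Hoxd9, Hoxd8, Hoxd3, Hoxd4 and Hoxd1. The start of the microRNA gene Mir10b came after that of Hoxd4, and the start of the long noncoding RNA gene Haglr before that of Hoxd1. Starts of whole entries need not give the order of the coding parts, and the list of 9 genes above names Hoxd4 before Hoxd3. Within the cluster, Hoxd10 is known for its part in the motor neurons of the lower spinal cord, and Hoxd3 for shaping the uppermost neck vertebra. Evx2, another homeobox gene, lies on the far side of Hoxd13, and Mtx2, which encodes a mitochondrial membrane protein, follows Hoxd1. Positions were not converted between builds, so no peak was tied to a single gene except by its distance from the mm9 landmarks of Hoxd13 and Hoxd1.

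The promoters of the landmark genes are shown because they bound the cluster, and because the peaks closest to them were the weak ones described below. Each sequence covers 250 bases before to 50 bases after the gene's start on the plus strand (RefSeq, GRCm38.p6), at chr2:74667975-74668274 for Hoxd13 and chr2:74762730-74763029 for Hoxd1. Capitals mark 4 short motifs on either strand: the CCAAT box, the TATAAA box, the homeodomain core TAATTA, and the E-box CACGTG. The E-box and the homeodomain core read alike on both strands, and in the Hoxd13 promoter 2 overlapping TATAAA matches, 1 per strand, run together.
Hoxd13: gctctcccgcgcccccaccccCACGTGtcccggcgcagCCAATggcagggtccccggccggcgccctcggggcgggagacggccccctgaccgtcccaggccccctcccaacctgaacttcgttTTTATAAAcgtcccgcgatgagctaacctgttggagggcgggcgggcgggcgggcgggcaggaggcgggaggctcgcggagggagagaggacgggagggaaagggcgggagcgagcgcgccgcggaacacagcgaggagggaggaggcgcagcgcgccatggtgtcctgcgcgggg
Hoxd1: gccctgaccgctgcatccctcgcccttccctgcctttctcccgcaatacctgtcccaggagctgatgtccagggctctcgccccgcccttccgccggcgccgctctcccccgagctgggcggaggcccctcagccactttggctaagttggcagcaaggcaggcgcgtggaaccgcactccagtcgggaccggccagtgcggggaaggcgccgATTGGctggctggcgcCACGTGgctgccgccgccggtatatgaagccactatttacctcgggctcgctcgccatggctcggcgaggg
The Hoxd13 promoter was 74.3% G and C with 37 CG dinucleotides, and the Hoxd1 promoter was 69.7% with 29. Over the 10 HoxD promoters in the table (Hoxd11 has 2), the median was 58.5% and 20 CG dinucleotides, against 52.7% and 7 over all 32851 mouse promoters of that length. Hoxd4, which acts in the hindbrain and neck, had the lowest G and C content of the cluster at 39.7%, with 4 CG dinucleotides. CACGTG occurred in 5 of the 10 HoxD promoters and in 7.15% of all promoters, and CCAAT in 7 of the 10 and in 37.4% of all. TATAAA occurred in 2 of the 10, those of Hoxd13 and Hoxd4, and in 13.6% of all. The homeodomain core occurred in the 2 promoters of Hoxd11, which acts in the forearm and kidney, and in 5.29% of all. These matches describe the letters of the windows and not bound sites.

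Peaks were dense in the cluster, and their median rank lay below the middle of each list. VAT 1 had 6 peaks and VAT 2 had 10 in the 110 kb of the cluster, against 7 in SAT 1 and 4 in SAT 2. The groups overlapped, since SAT 1 stood above VAT 1. Both subcutaneous lists, however, held 2 peaks in 1 merged region. Counted as merged regions with a peak, the cluster held 6 in VAT 1 and 10 in VAT 2, against 6 in SAT 1 and 3 in SAT 2. SAT 1 then equalled VAT 1. The mean was 8 ± 2.83 peaks in visceral and 5.5 ± 2.12 in subcutaneous progenitors (SD, n = 2 each), a difference of 2.5 that is smaller than the SD of the visceral libraries. Across the genome, windows of 110 kb on a fixed grid of 23994 held a median of 1 peak in VAT 1, VAT 2 and SAT 1 and 0 in SAT 2. Fewer peaks than in the cluster were found in 84.9% of these windows for VAT 1, 94.8% for VAT 2, 88.9% for SAT 1 and 92.2% for SAT 2. The cluster was thus among the denser stretches in every library.

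Relative to the length of the lists, the order of the libraries changed. The cluster took 1.05 of every 10000 peaks in VAT 1 and 1.61 in VAT 2, against 1.23 in SAT 1 and 1.75 in SAT 2. The shortest list thus gave the cluster its largest share by peaks, and the mean difference of visceral minus subcutaneous was -0.16 per 10000. Both subcutaneous lists count 2 peaks in 1 merged region here, and a share by merged regions was not computed. The difference of -0.16 turned positive when VAT 1 was left out (0.11) or SAT 2 was (0.0981). With all lists cut to equal length, at the 22845 peaks with the highest scores, the cluster kept 1 peak in VAT 1 and 2 in VAT 2, against 1 in SAT 1 and 4 in SAT 2, a difference of -1. Of the 4 SAT 2 peaks, 2 lay in the same merged region. The cut leaves a lowest score of 134 in VAT 1, 131 in VAT 2 and 120 in SAT 1. Some peaks tied at these scores are left out, and none is removed from SAT 2. The scores of the SAT 2 peaks in the cluster were 58 to 77.

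The bases under peaks spread further than the numbers. Peaks covered 1694 bp of the cluster in VAT 1 and 3476 bp in VAT 2, against 1804 bp in SAT 1 and 518 bp in SAT 2. VAT 2 stood apart at the top and SAT 2 at the bottom, while VAT 1 and SAT 1 differed by little. The widest cluster peak measured 656 bp in VAT 1 and 989 bp in VAT 2, against 581 bp in SAT 1 and 158 bp in SAT 2. The median score percentile of cluster peaks was 36.8 in VAT 1 and 32.4 in VAT 2, against 36.9 in SAT 1 and 38.4 in SAT 2. This median lay below the middle of every list. The highest cluster peak reached 70.9 in VAT 1 and 74.4 in VAT 2, against 76.5 in SAT 1 and 40.7 in SAT 2.

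**Figure D1:**
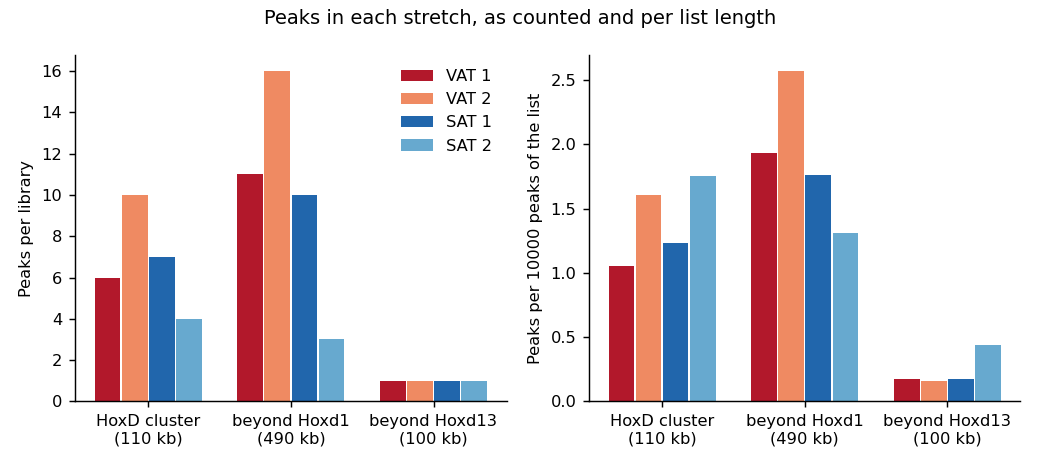
Number of peaks per library (left) and peaks per 10000 peaks of the library's list (right) in the HoxD cluster, the flank beyond Hoxd1 and the flank beyond Hoxd13; each bar is 1 library. In the cluster SAT 1 (7 peaks) stands above VAT 1 (6 peaks), though by merged regions with a peak both have 6. Beyond Hoxd1 both VAT libraries (11 and 16 peaks) stand above both SAT libraries (10 and 3 peaks). Mean peak numbers over other windows of 490 kb have this same order of libraries.

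Peaks were gathered on the Hoxd13 side of the cluster. Divided midway between the landmarks, the Hoxd13 side held 6 peaks in VAT 1 and 7 in VAT 2, against 6 in SAT 1 and 4 in SAT 2. The Hoxd1 side held 0 in VAT 1 and 3 in VAT 2, against 1 in SAT 1 and 0 in SAT 2. By RefSeq gene order, the Hoxd13 side begins with Hoxd13, needed for digits and the urogenital tract. Hoxd12 and Hoxd11, which act with it in limbs, come next. The Hoxd1 side ends with Haglr and Hoxd1, which in mice is active in pain-sensing neurons. In GRCm38.p6, the promoter windows of Hoxd13 to Hoxd3 started between 74667975 and 74711743. Those of Hoxd4 and Hoxd1 started at 74721728 and 74762730. Most HoxD gene starts thus lie towards Hoxd13, and peak density was not set against gene density. Between 46.1 kb and 93.3 kb past the Hoxd13 landmark, the only peaks were from VAT 2, and the longest stretch of the cluster with no peak in any list ran for 22.1 kb, from 74565351 to 74587404.

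The widest region of the window lay in the cluster, at 74542879 to 74543980 (1102 bp), 35.4 kb past the Hoxd13 landmark, and it had a peak in all 4 libraries. Its highest peak scored 174 in VAT 1 and 157 in VAT 2, against 183 in SAT 1 and 76 in SAT 2. In percentiles this was 70.9 and 69.7 in the visceral lists, against 76.5 and 38.7 in the subcutaneous lists. By score and percentile only SAT 2 stood apart. Counted from the top of each list, its peak ranked 13985, against 13312 in SAT 1, 16533 in VAT 1 and 18840 in VAT 2. The SAT 2 list is the shortest, so an equal rank gives a lower percentile there. Both subcutaneous lists held 2 separate peaks here where each visceral list held 1. This was the only cluster region that kept a peak in every library when all lists were cut to equal length.

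A region at 74553917 to 74554275 (359 bp), 46.1 kb past the Hoxd13 landmark, was also found in all 4 libraries. Its percentiles were 44.6 in VAT 1 and 74.4 in VAT 2, against 50.6 in SAT 1 and 38.1 in SAT 2. By percentile VAT 2 was the highest, and VAT 1 lay between the subcutaneous libraries. Counted from the top of each list, SAT 2 came first (14133), against 15951 in VAT 2, 28129 in SAT 1 and 31533 in VAT 1. The third region of this kind, at 74529524 to 74530005 (482 bp), 21.8 kb past the landmark, had percentiles of 29.0 in VAT 1 and 55.0 in VAT 2, against 39.4 in SAT 1 and 40.7 in SAT 2. Here VAT 1 was the lowest and VAT 2 the highest, so the subcutaneous percentiles lay between the visceral ones. By rank from the top SAT 2 again came first (13569), against 28106 in VAT 2, 34510 in SAT 1 and 40430 in VAT 1.

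Between these lay a region at 74535784 to 74536366 (583 bp) that was missing from SAT 2 alone. Its percentiles were 47.3 in VAT 1 and 56.0 in VAT 2, against 36.9 in SAT 1. These 4 regions were the only ones of the cluster with peaks in both depots. The other 9 regions of the cluster had peaks in 1 library, or in 2 in the case of the region next to Hoxd13, and their percentiles reached at most 47.6.

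The region nearest to Hoxd13 was the cluster's only one restricted to a depot. It lay at 74506355 to 74506704, 1.5 kb from the landmark, where VAT 1 had a score of 54 and VAT 2 one of 43, with no peak in SAT 1 or SAT 2. Both were weak peaks, at the percentiles of 15.2 and 9.8, and they shared 55 bp, so that they no longer counted as 1 region when a 50% reciprocal overlap was asked for. Nearest to Hoxd1 was a peak of 108 bp in SAT 1 alone, at 74601285 to 74601392 and 3.7 kb from the landmark, with a score of 28 and a percentile of 0.71, close to the bottom of the list. The closest peak to either landmark was thus weak, though the landmarks are given to the nearest kb and are not annotated gene starts; the SAT 1 peak was chosen for mention after its values were seen.

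**Figure D2:**
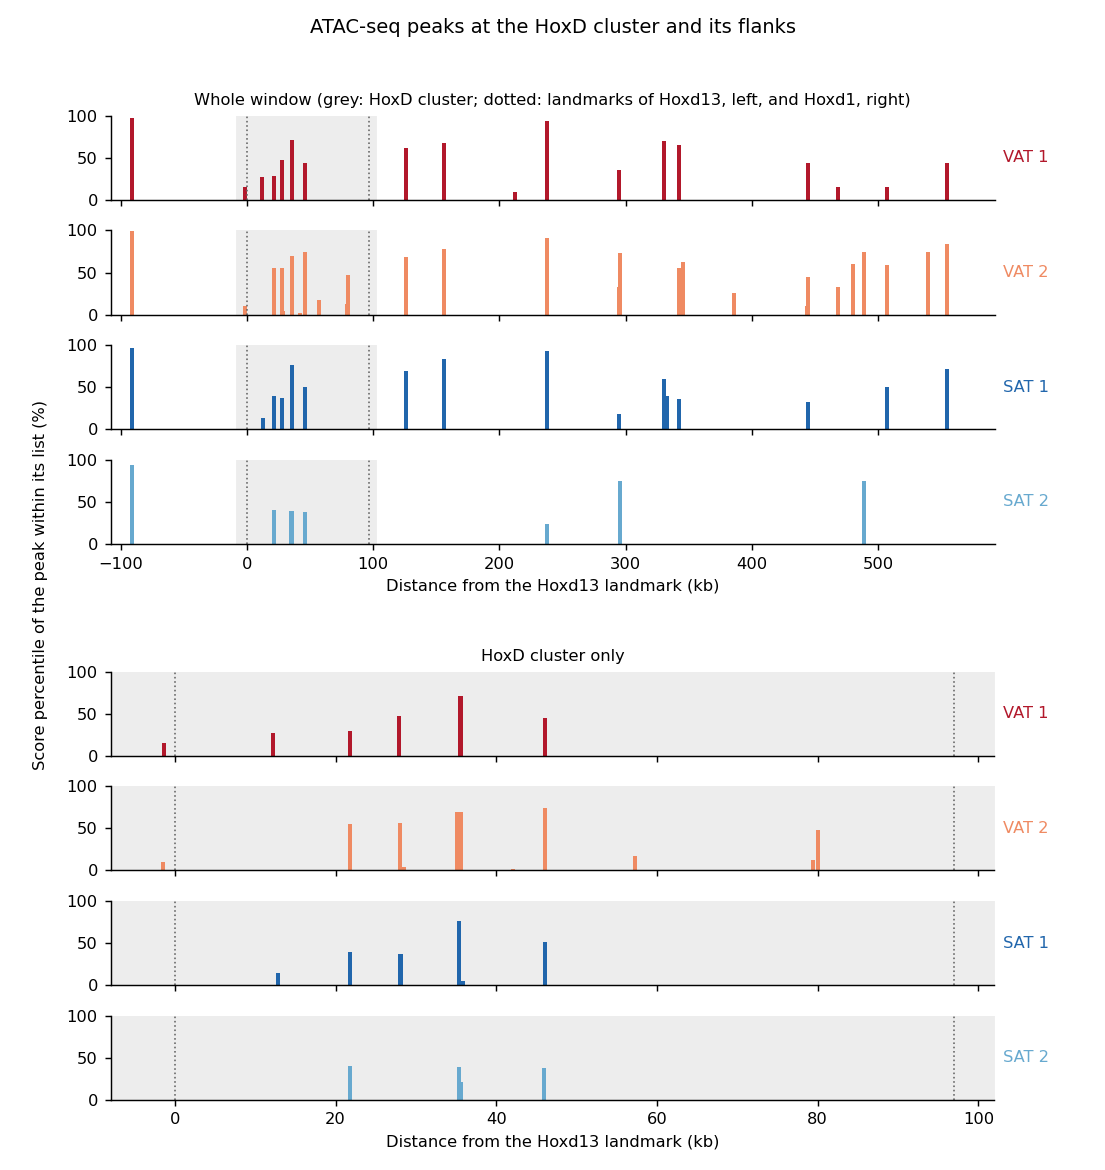
Peaks of each library by distance from the Hoxd13 landmark in kb (horizontal) and score percentile within the list (height), for the whole window (upper 4 rows) and the cluster alone (lower 4 rows); each bar is 1 peak, drawn at a minimum width. Cluster peaks crowd between 20 and 50 kb in every library, and the SAT 1 peak at 93.3 kb, with a percentile of 0.71, is too low to see.

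The 2 sides of the cluster differed, but the direction depended on the measure. Within the window, peaks per Mb were 10 beyond Hoxd13 in every library. Beyond Hoxd1 they were 22.4 in VAT 1 and 32.7 in VAT 2, against 20.4 in SAT 1 and 6.12 in SAT 2. The covered percent was higher beyond Hoxd13 in VAT 1 (0.805 against 0.512), SAT 1 (0.692 against 0.391) and SAT 2 (0.249 against 0.133). It was lower there in VAT 2 (0.725 against 0.807). Beyond Hoxd13, the 100 kb of the window held 1 region, at 74416462 to 74417284 (823 bp), and it was the highest-ranking of the window. It scored 463 in VAT 1 and 559 in VAT 2, against 383 in SAT 1 and 233 in SAT 2, at percentiles of 97.8 and 99.1 against 96.6 and 93.3. A further 424.7 kb beyond it, from 73991715 to 74416461, held no peak in any list; the neighbour outside was a peak at 73991548 to 73991714 in VAT 2 alone. Of 83298 such stretches between neighbouring regions of the main chromosomes, 0.902% were as long or longer, and the median was 9.32 kb.

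A stretch of 490 kb on the Hoxd13 side, taken to mirror the flank beyond Hoxd1 and chosen after the peaks were seen, held 1 region, with 1 peak in each library. The 490 kb beyond Hoxd1 held 19 regions, with 11 peaks in VAT 1 and 16 in VAT 2, against 10 in SAT 1 and 3 in SAT 2. In mouse limbs the Hoxd13 side is the enhancer domain of digits and the Hoxd1 side that of the forearm; the peaks carry no mark of enhancer activity, and which genes they act on was not tested. Compared with other windows of 490 kb, the flank beyond Hoxd1 was ordinary in density. Fewer peaks were found in 59.0% of 5379 such windows for VAT 1, 68.0% for VAT 2, 56.1% for SAT 1 and 51.6% for SAT 2.

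The numbers of peaks beyond Hoxd1 did not overlap between depots in the lists as deposited, but did among the stronger peaks. The flank averaged 13.5 ± 3.54 peaks in visceral and 6.5 ± 4.95 in subcutaneous progenitors (SD, n = 2 each), a difference of 7. VAT 1 and SAT 1 differed by only 1 peak, so that most of the difference came from VAT 2 and SAT 2. The means over the 5379 other windows of 490 kb had the same order of libraries. They were 10.55 in VAT 1 and 11.54 in VAT 2, against 10.53 in SAT 1 and 4.22 in SAT 2, so this order is not particular to the flank. How many single windows keep the depots apart, by number or per 10000, was not counted. Per 10000 peaks of the list the flank took 1.93 in VAT 1 and 2.57 in VAT 2, against 1.76 in SAT 1 and 1.31 in SAT 2, and these values also did not overlap. With lists of equal length it kept 5 peaks in VAT 1 and 7 in VAT 2, against 4 in SAT 1 and 3 in SAT 2; a SAT 1 peak of the flank that scored 120 was left out by the tie, and with it SAT 1 would equal VAT 1. In the top 50% of each list the flank held 5 peaks in VAT 1 and 11 in VAT 2, against 6 in SAT 1 and 2 in SAT 2. VAT 1 then lay below SAT 1, also per 10000 peaks (1.76 in VAT 1 and 3.53 in VAT 2, against 2.11 in SAT 1 and 1.75 in SAT 2), so that the depots overlapped. Without SAT 2, in the lists as deposited, the difference was 3.5 peaks, and 0.491 per 10000. With 2 libraries against 2, an exact permutation test cannot give a p below 0.33, so replicates of this number cannot show a depot difference at the usual threshold.

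Which libraries held each region was set beside the same classes over all merged regions. A peak in all 4 libraries was found in 5 of the 33 regions (15.2%), against 23.2% of all merged regions, and a peak in all but SAT 2 in 8 (24.2%), against 19.5%. Restricted to both visceral libraries were 2 regions (6.06%), against 4.60% of all, and restricted to both subcutaneous libraries were 0, against 0.110%. The depot classes thus lay near the background, and their number here is not a result about HoxD. The second visceral region lay at 74976028 to 74976217, 371.1 kb past the Hoxd1 landmark, with percentiles of 15.2 in VAT 1 and 32.7 in VAT 2. Neither visceral region kept a peak in both libraries of its depot when lists were cut to equal length.

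Classes by replicate number held 2 regions and 1 region, on opposite sides of the background. A peak in both replicate 2 libraries and neither replicate 1 library was found in 2 of the 33 regions, or 6.06%, against 0.652% of all merged regions. Both lay beyond Hoxd1. The first, at 74803542 to 74803838, 198.7 kb past the Hoxd1 landmark, scored 174 in VAT 2 and 139 in SAT 2 and was absent from VAT 1 and SAT 1. The second, at 74996559 to 74996972, 391.8 kb past it, scored 182 in VAT 2 and 139 in SAT 2. Their percentiles were 73.4 and 74.9 in VAT 2, and 74.9 for both in SAT 2.

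By the weaker of their 2 peaks, these ranked 6th and 5th of the 543 regions of this class in the genome, whose median was 21.3. After the region beyond Hoxd13, they were the highest-ranking SAT 2 peaks of the window. They were also 2 of only 3 SAT 2 regions beyond Hoxd1. Restricted to both replicate 1 libraries was 1 region (3.03%), against 9.37% of all. It lay at 74838490 to 74838737, with percentiles of 69.7 in VAT 1 and 59.3 in SAT 1. The replicate 1 region and the count for replicate 2 were singled out after their values were seen, and the labels do not say what libraries of the same number share.

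The remaining 15 regions (45.5%), against 36.4% of all, had a peak in a single library. VAT 2 alone held 10 of them (30.3% of the 33), against 19.6% of all merged regions, and VAT 1 alone held 2, against 8.58%. SAT 1 alone held 3, against 7.84%, and SAT 2 alone held 0, against 0.360%. Of the VAT 2 regions, 5 lay in the cluster and 5 beyond Hoxd1. The cluster ones ranked between the percentiles of 2.2 and 47.6, whereas those beyond Hoxd1 included 3 at 60.2, 62.6 and 74.7. The strongest of these, at 75047116 to 75047373, scored 181, and the one at 74853466 to 74853766 scored 130.

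**Figure D3:**
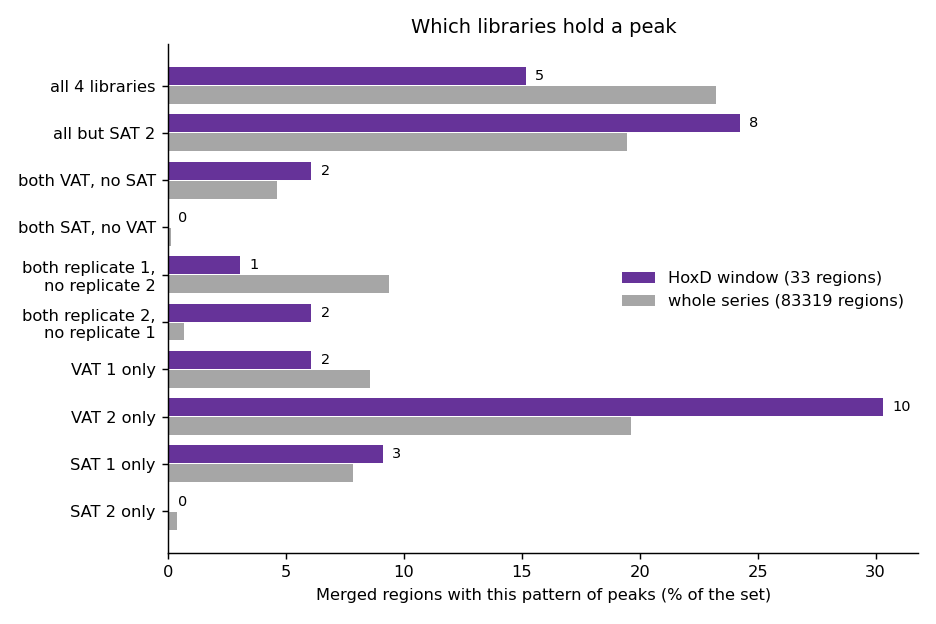
Share of merged regions with a peak in the libraries named on the vertical axis, in percent of the 33 regions of the HoxD window (purple, with the number of regions) and of all 83319 merged regions (grey). Regions in both VAT and no SAT library (2 of 33, against 4.60%) lie near the background. Those in both replicate 2 libraries alone (2 of 33, against 0.652%) lie above it, a count added after seeing the data. Those in both replicate 1 libraries alone (1 of 33, against 9.37%) lie below it.

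Beyond Hoxd1, 7 of the 19 regions had a peak in both visceral libraries and in SAT 1 but not in SAT 2, a class of 19.5% over all merged regions. The highest region of this flank, at 74745502 to 74745961 (460 bp), 140.7 kb past the Hoxd1 landmark, was the only one there with a peak in all libraries. It scored 362 in VAT 1 and 328 in VAT 2, against 322 in SAT 1 and 59 in SAT 2, at percentiles of 93.7 and 91.0 against 93.6 and 23.6. The other libraries were alike and SAT 2 was far lower, also by percentile. This region falls outside the rule for regions named in full and was chosen after its values were seen. A region at 74663647 to 74664199 (553 bp), 58.9 kb past the landmark, had percentiles of 67.6 in VAT 1 and 78.3 in VAT 2, against 83.0 in SAT 1 and no peak in SAT 2. The region nearest to the cluster, at 74633595 to 74633834 (240 bp), had 61.8 in VAT 1 and 68.5 in VAT 2, against 69.4 in SAT 1, and was also missing from SAT 2.

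In both, SAT 1 ranked above the visceral libraries. The other 5 regions of this flank that were missing from SAT 2 alone had percentiles between 15.2 and 84.4. The last of the window, at 75062549 to 75062906, had 44.6 in VAT 1 and 84.4 in VAT 2, against 72.2 in SAT 1; it was picked out for its position after the values were seen. The first region outside it, 49.4 kb past the edge, was a peak in VAT 2 alone with a percentile of 32.7.

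**Figure D4:**
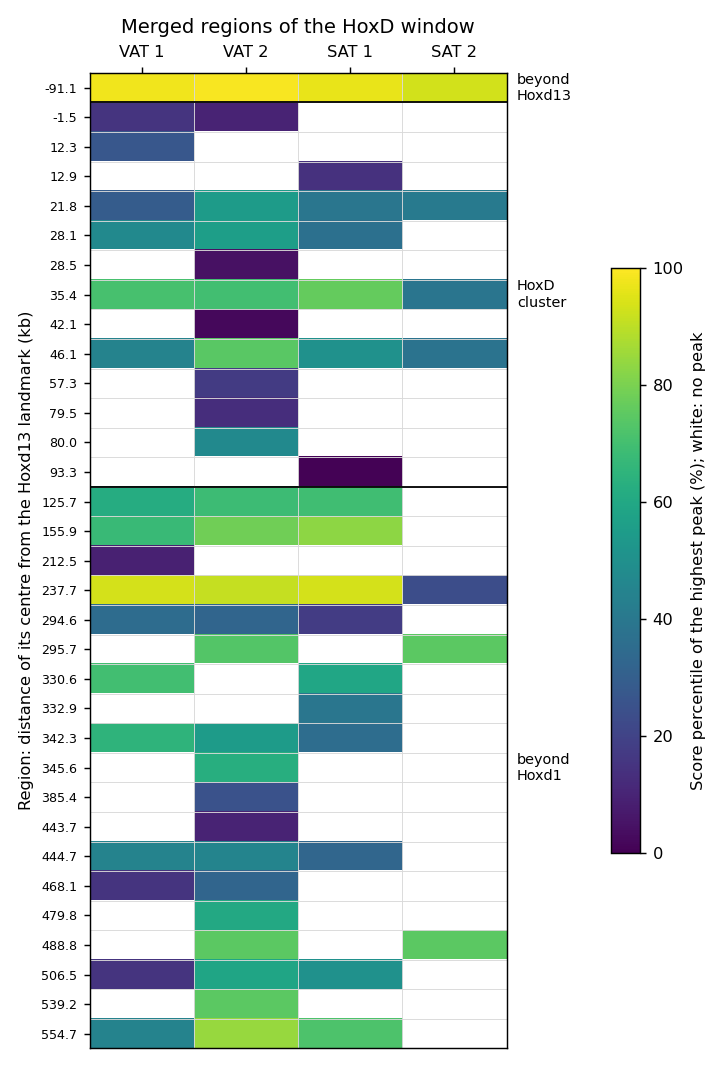
Merged regions of the window (rows, from the Hoxd13 side at the top, named by the distance of their centre from the Hoxd13 landmark in kb) and the score percentile of the highest peak in each library (columns and colour; white, no peak). The region beyond Hoxd13 is above 93 in every library, cluster regions reach at most 76.5, and SAT 2 has a peak in 3 of the 19 regions beyond Hoxd1.

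By the Jaccard index, the libraries most alike at HoxD came from different depots, as in the whole lists. In bases alone, VAT 1 and VAT 2 shared more of the window (3883) than VAT 1 and SAT 1 did (3465). The Jaccard index of VAT 1 and SAT 1 was 0.582 in the window, 0.490 in the cluster and 0.580 beyond Hoxd1. VAT 1 and VAT 2, of the same depot, shared 0.418, 0.367 and 0.382. SAT 1 and SAT 2, of the same depot, shared 0.188, 0.222 and 0.108. Beyond Hoxd1 the index of VAT 2 and SAT 2 (0.165) was above that of VAT 1 and SAT 2 (0.0858). In the cluster the index had the other order (0.149 and 0.293), though VAT 2 shared more bases with SAT 2 (518) than VAT 1 did (501). VAT 2 peaks held all 518 bp of SAT 2 in the cluster and all 1419 bp in the window. They covered 3476 bp of the cluster, against 1694 bp in VAT 1, which lowers the index. The lower values with SAT 2 move with its short list, whose part in them was not tested.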

How the data were processed

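ATAC-seq was made from 4 libraries, 2 per depot, with groups and numbers from the sample titles. Per the submitters' processing notes, Bowtie2 and MACS2 were used on build mm9; versions, options, duplicate removal and any read shift were not given in the sources used here. Column 5 of each deposited file holds a peak score from the authors' caller, with a lowest value of 20 and no stated scale; it served for ranks inside its own list alone. Peaks had been called per library, and depth is unknown.

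Peaks sharing at least 1 bp were merged; a region counted for a library if it held a peak of it. Percentiles are mid-ranks; where lists were cut to equal length, ties at the lowest score kept were broken by position. Merging was tested on 5000 simulated regions, all recovered, and gave the same 83319 regions as bedtools 2.31.1. Python 3.11.15, numpy 2.4.6, pandas 2.3.3, scipy 1.17.1 and matplotlib 3.10.9 were used. Regions named in full by rule were those of the cluster with a peak in all libraries, depot-restricted regions and the 5 widest. The rule also took the 6 beyond Hoxd1 and up to 3 beyond Hoxd13 with the highest weakest percentile over the libraries that held them. Further regions were named after their values were seen, as stated with them. The members and lists were chosen with earlier results of these data known. Permutation p-values over libraries are not used, for that reason. Positions count from 1 on mm9, and RefSeq sequences follow GRCm38.p6.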

Additional observations from a re-analysis of the deposited data

How the results depend on the processing

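Depot differences are visceral minus subcutaneous. With equal-length lists, the difference in cluster peaks (2.5) became -1, and that in their median percentile (-3.03) became 14.0. With cluster limits at the landmarks, the median percentile difference became 8.43, and in the top 50% of each list it had no value, since SAT 2 then had no cluster peak. The share of the list in the cluster (-0.16 per 10000) became 0.47 in the top 50%. The mean differences in covered bases in the cluster and in both measures beyond Hoxd1 kept their direction under every alternative run, but in the top 50% VAT 1 (5 peaks beyond Hoxd1) fell below SAT 1 (6), so that the depots overlapped there. With 1 library left out, differences ranged from 0.5 to 4.5 cluster peaks, from -0.44 to 0.11 per 10000 (positive without VAT 1, at 0.11, and without SAT 2, at 0.0981), from 533 to 2315 covered bp, from 3.5 to 10.5 peaks and from 0.396 to 1.03 per 10000 beyond Hoxd1, and from -5.22 to -0.85 in the median percentile.

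The number of regions in all libraries (5) was 3 with equal-length lists, 1 in the top 50% and 1 with 50% reciprocal overlap. Regions missing only from SAT 2 (8) numbered 2 with equal-length lists and 4 in the top 50%. Those restricted to visceral libraries (2) numbered 0, 1 and 1 with equal-length lists, the top 50% and 50% reciprocal overlap. The region restricted to replicate 1 libraries (1) was lost with equal-length lists (0), where its SAT 1 peak, tied at the lowest score kept (120), was left out, and merging within 500 bp gave 2. Regions restricted to replicate 2 libraries, a count added after seeing the data, numbered 2 or 3 in these settings. Leaving out 1 library loosens each rule by construction: the counts then were 5 to 13 in all libraries, 8 to 10 missing only from SAT 2, 2 to 12 for visceral, 0 to 3 for subcutaneous, 1 to 9 for replicate 1 and 2 to 12 for replicate 2. Without SAT 2 they reached 13 in all libraries, 3 for subcutaneous and 12 for replicate 2; without VAT 1, 12 for visceral; and without VAT 2, 9 for replicate 1. Beyond what these rules and list lengths fix, the cause of these moves was not tested.

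The percentile differences VAT 1 minus VAT 2 and SAT 1 minus SAT 2 were only weakly correlated (Pearson's r 0.152). The value is over the 19350 regions with a peak in every library, which are not replicates. So weak a value, from 2 pairs, does not show that the numbers pair the samples. With the replicate block, the depot differences were the same by construction (2.5 and 7 peaks), from 2 pairs that allow no p below 0.5. Depth limits every absence: without read counts, a weak site in a shallow library cannot be told apart from a closed one.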
